A study of Mus musculus with 108 samples.

Results

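The pieces of open chromatin that drove a reporter in embryonic stem cells (ES) were compared with those that drove it in hemangioblasts (HB), the FLK1-positive mesodermal cells that give rise to blood and endothelium. All libraries sorted for the yellow fluorescent protein (YFP) in the Low, Medium, High and Medium/High gates of ES and HB were taken, 28 of the 95 sorted libraries of the series, and the lists of each stage and replicate were united so that every fragment counted once. This gave 5 YFP-positive sets per stage, with 386844 distinct fragments. The 10 Negative lists of the same stages, from cells without YFP, were treated the same way and held 155337 distinct fragments.

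All cells came from HM-1, a mouse ES cell line whose defective Hprt locus is repaired when the reporter integrates there. The reporter is a minimal HSP68 promoter in front of Venus-YFP, with 1 genomic fragment cloned upstream, and the fragments had been released by the Tn5 transposase from open chromatin of cells of all 5 stages of the differentiation. ES libraries came from undifferentiated cells and HB libraries from cells of the same line differentiated in vitro, so 1 locus, 1 reporter and 1 cell line were shared by every group. Replicates 1 to 4 had separate Medium and High gates and replicate 5 a joint Medium/High gate, and no expression was measured in these libraries, so stage identity was not checked against marker genes.

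An enhancer is a stretch of DNA bound by transcription factors that raises transcription from a promoter at a distance, and its short bound motifs largely decide in which cells it works. ES cells are held in the pluripotent state by factors such as OCT4, SOX2, ESRRB and KLF4. On the way to blood, mesoderm becomes FLK1-positive (Kdr) under BMP, WNT and VEGF signals, and GATA2, TAL1, LMO2 and ETS-family factors then act at hemangioblast enhancers. GATA factors bind AGATAA and related motifs, whereas AP-1 (the FOS and JUN family), TEAD (the partners of YAP) and ETS factors are present in many cell types.

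The sequences below show distal sites that were listed at 1 stage alone and carry the GATA motif, whose share rose in HB, or the AP-1 motif, whose share fell (the values follow). A distal site is a group of overlapping fragments from the distal lists, which by the study's definition lie more than 1.5 kb from a transcription start. Each line gives 150 bases of GRCm38 (mm10), plus strand, around the median middle of the site's fragments, with the gene whose start lies nearest. In the sites listed in HB alone, capitals mark the GATA motif AGATAA on either strand. The Tbc1d7 site lies 20427 bp from that gene's start between genes (28 HB fragments), the Myzap site 14473 bp away between genes (22 fragments), the Hoxb1 site 33745 bp away between genes (22 fragments), and the Flt1 site in an intron 11247 bp from the start (11 fragments). Flt1 encodes a VEGF receptor of endothelial cells.
Tbc1d7, chr13:43191909-43192058: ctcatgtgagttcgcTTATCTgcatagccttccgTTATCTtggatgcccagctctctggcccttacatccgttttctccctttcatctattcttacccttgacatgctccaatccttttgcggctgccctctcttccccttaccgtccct
Myzap, chr9:71606672-71606821: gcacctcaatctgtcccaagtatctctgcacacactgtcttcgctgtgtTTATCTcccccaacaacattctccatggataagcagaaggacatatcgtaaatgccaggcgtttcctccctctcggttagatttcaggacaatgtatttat
Hoxb1, chr11:96400085-96400234: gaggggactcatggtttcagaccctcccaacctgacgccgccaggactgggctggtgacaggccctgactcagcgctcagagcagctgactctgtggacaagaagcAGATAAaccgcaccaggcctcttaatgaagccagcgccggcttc
Flt1, chr5:147657971-147658120: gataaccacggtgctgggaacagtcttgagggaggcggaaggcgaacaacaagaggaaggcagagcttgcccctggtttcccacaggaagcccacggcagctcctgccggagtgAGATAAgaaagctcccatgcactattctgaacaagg

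In the sites listed in ES alone, capitals mark the AP-1 motif TGANTCA. Only the motif named for each group is in capitals. In lower case, the Cdk18 window also holds AGATAA, and the Hoxb1 window above holds TGACTCA. The Cdk18 site lies between genes, 20585 bp from the start of a gene for a cyclin-dependent kinase (17 ES fragments). The Smurf1 site lies in an intron 810 bp from the nearest protein-coding start used here (17 fragments), and Smurf1 encodes a ubiquitin ligase of the BMP pathway. The Bach2 site lies in an intron 3356 bp from the start of the gene for the BACH2 repressor (16 fragments).
Cdk18, chr1:132095630-132095779: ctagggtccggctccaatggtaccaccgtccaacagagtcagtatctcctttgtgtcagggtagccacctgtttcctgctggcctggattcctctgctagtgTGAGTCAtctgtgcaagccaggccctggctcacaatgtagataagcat
Smurf1, chr5:144898658-144898807: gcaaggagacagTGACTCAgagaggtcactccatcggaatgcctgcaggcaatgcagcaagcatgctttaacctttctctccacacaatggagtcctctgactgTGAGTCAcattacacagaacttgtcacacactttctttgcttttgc
Bach2, chr4:32251138-32251287: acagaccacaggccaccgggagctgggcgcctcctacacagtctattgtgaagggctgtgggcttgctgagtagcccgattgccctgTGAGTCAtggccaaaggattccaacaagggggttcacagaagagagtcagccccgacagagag

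The sets differed far more between replicates than between stages. The ES sets of replicates 1 to 5 held 99945, 103317, 29162, 5142 and 2185 fragments and the HB sets 121739, 121834, 37381, 5877 and 1848. A single fragment therefore weighed 5.41 per 10000 listed fragments in the smallest set and 0.0968 in the largest ES set. For comparisons of single sites the larger set of each replicate was thinned to the smaller. Of a Negative list, between 4.26% (ES replicate 3) and 47.9% (HB replicate 4) of the fragments were also in the positive set of the same stage and replicate.

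Distal fragments made up more of the positive sets in HB than in ES. Their share in ES was 24.2%, 24.1%, 29.5%, 24.7% and 26.8% in replicates 1 to 5, and in HB it was 27.9%, 28.5%, 31.97%, 30.7% and 30.8%. HB was higher in 5 of 5 replicates, although ES replicate 3 lay among the HB values. The means were 25.8% ± 2.3 (SD, n = 5) and 30.0% ± 1.70, a difference of 4.12 points (exact two-sided permutation test, p = 0.0238). The other fragments came from promoters, which therefore fell by the same amount. With the replicate number as a block the p was 0.063, the smallest that 5 pairs allow, and leaving out replicate 1, 2, 4 or 5 took the p to 0.0571, 0.0571, 0.0857 and 0.0857 with differences of 4.23, 4.05, 3.66 and 4.15 points.

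The Negative lists shifted the same way. Their distal share was 25.0% ± 1.73 in ES and 28.2% ± 1.82 in HB, a difference of 3.26 points, with HB higher in 5 of 5 replicates (exact permutation test, p = 0.0238). The shift in positive sets minus that in Negative lists was 0.866 points (exact permutation test on positive minus Negative shares, p = 0.238, adjusted p = 0.278 over 5 measures).

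**Figure D1:**
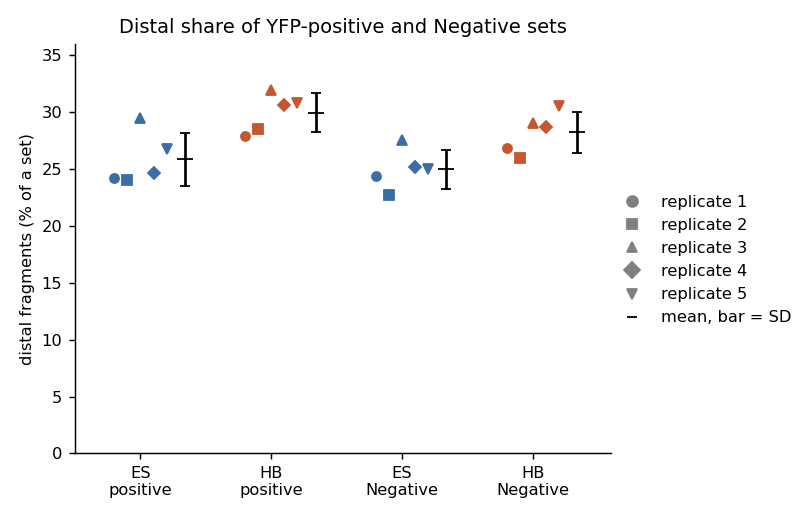
Share of distal fragments (%) in each YFP-positive set and Negative list of ES (blue) and HB (orange), 1 symbol per replicate, with mean and SD over 5 replicates. HB lies above ES within every replicate in both kinds of cells, by 4.12 points on average in positive sets and 3.26 points in Negative lists.

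The sets did not detectably differ in how many places their fragments came from. Reduced to 220 distal fragments each, the positive sets covered 215.7 ± 2.40 distal sites in ES and 216.6 ± 1.25 in HB. Reduced to 660 promoter fragments each, they covered 624.0 ± 11.3 and 627.5 ± 7.05 promoter sites (exact permutation tests, adjusted p = 0.929 for both). At this number nearly every fragment lay in a site of its own, which leaves little room for a difference. When both sets of a replicate were brought to the smaller of the pair, HB covered 702, 1236, 184 and 81.7 more distal sites in replicates 1 to 4 and a difference of -8.95 in replicate 5 (exact sign-flip test, p = 0.125). HB covered more promoter sites in 5 of 5 replicates, by 9.98 to 471 (exact sign-flip test, p = 0.063, the smallest possible).

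Pooled over replicates without thinning, ES fragments covered 16997 distal sites and HB fragments 21330, of which 9871 were shared, 58.1% of the ES sites and 46.3% of the HB sites. Promoters were shared far more widely, with 12016 sites common to 13209 in ES and 14012 in HB (91.0% and 85.8%). The HB pool held 74491 distal fragments against 50387, so a larger number of HB sites goes with a larger number of fragments. Pairs of sets from 2 replicates shared more distal sites when both came from 1 stage than when they came from different stages, with mean log2 ratios of observed to expected sharing of 0.80 and 0.50. The difference was 0.30 in distal sites and 0.049 in promoter sites (exact test with stage names swapped within replicates, one-sided p = 0.063 for both, the smallest possible). In the Negative lists the same differences were 0.28 and 0.051.

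The place of distal fragments within genes did not pass the test. Introns held 41.9% ± 1.30 of distal fragments in ES and 43.6% ± 1.81 in HB, and space between genes 41.5% ± 0.744 and 41.3% ± 1.92. Within 10 kb of a start lay 65.2% and 64.1%. Of 8 classes of place and distance, 0 passed (lowest adjusted p = 0.296, exact permutation test), and 0 had an unadjusted p below 0.05.

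Motif content separated the stages. The share of distal fragments with a match in the 150 bases around their middle was compared for 20 motifs, GC content and CpG number, and 4 of the 22 measures passed (18.2%). The same 4 were the only ones whose 5 ES and 5 HB values did not overlap (18.2%). This restates the calls, since values without overlap give the smallest possible p of this test. GATA matches rose in HB, and AP-1, TEAD and ETS matches fell.

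GATA matches, the AGATAA motif of GATA1 to GATA6, were found in 4.50%, 4.37%, 4.75%, 3.78% and 4.44% of distal fragments in ES and in 7.77%, 7.54%, 6.69%, 6.55% and 7.91% in HB. The lowest HB set lay above the highest ES set. The means were 4.37% ± 0.359 and 7.29% ± 0.630, a difference of 2.92 points (exact permutation test, adjusted p = 0.0437 over 22 measures, with an unadjusted p of 0.00794, the smallest possible).

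AP-1 matches (TGANTCA) were found in 7.25%, 7.38%, 7.42%, 6.77% and 6.84% of distal fragments in ES and in 6.19%, 6.33%, 6.08%, 5.49% and 4.92% in HB. Every HB set lay below every ES set. The share fell by 1.33 points, from 7.13% ± 0.308 to 5.80% ± 0.587 (exact permutation test, adjusted p = 0.0437). TEAD matches (GGAATG) fell from 9.79% ± 0.598 to 8.5% ± 0.661 and ETS matches (CGGAAGT) from 1.79% ± 0.460 to 1.13% ± 0.267, each lower in HB in 5 of 5 replicates (adjusted p = 0.0437 for both). All 4 calls were lost, with the same signs, when matches were counted per kb of the whole fragment (lowest adjusted p = 0.109) or in 1 fragment per site (0.0582), and in the 10 alternatives run the adjusted p was 0.0582 or higher. The ETS values of replicates 1 and 2, the largest sets, were close, at 1.40% and 1.40% in ES and 1.27% and 1.31% in HB.

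Motifs of the pluripotency factors did not pass. The octamer ATGCAAAT, bound by OCT4, was in 1.09% ± 0.354 of ES and 0.938% ± 0.368 of HB distal fragments (adjusted p = 0.742), and the ESRRB motif AAGGTCA in 2.51% ± 0.355 and 2.32% ± 0.268 (adjusted p = 0.645). The E-box CAGATG, a motif of TAL1-type factors, was higher in HB in 5 of 5 replicates, at 10.8% ± 0.246 against 11.8% ± 0.814 (adjusted p = 0.136). TCF/LEF matches (ATCAAAG), the motif of WNT signalling, were also higher in 5 of 5, at 1.55% ± 0.247 and 2.01% ± 0.239 (adjusted p = 0.0998). GC content was 56.6% and 56.3% (adjusted p = 0.742). In promoter fragments 0 of 22 measures passed (lowest adjusted p = 0.437).

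Negative lists carried the same GATA difference. GATA matches were in 4.67% ± 0.583 of distal Negative fragments in ES and 8.28% ± 0.560 in HB, without overlap of the sets, and TEAD matches in 10.2% ± 0.401 and 8.06% ± 0.722, also without overlap (adjusted p = 0.0873 for both). These 2 of 22 measures (9.09%) were the ones without overlap in Negative lists, where 0 passed the adjusted test. AP-1 matches were in 6.58% ± 1.06 and 5.89% ± 1.02 (adjusted p = 0.512) and ETS matches in 1.15% ± 0.409 and 1.48% ± 0.540 (adjusted p = 0.512). The stage difference in positive sets minus that in Negative lists was -0.69 points for GATA (p = 0.278), -0.64 for AP-1 (p = 0.230), 0.90 for TEAD (p = 0.0476) and -0.99 for ETS (p = 0.0556) by exact permutation tests added after the values were seen, and 0 of these passed after adjustment over 5 measures (lowest adjusted p = 0.139). So the GATA difference was not shown to differ between cells with and without YFP.

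**Figure D2:**
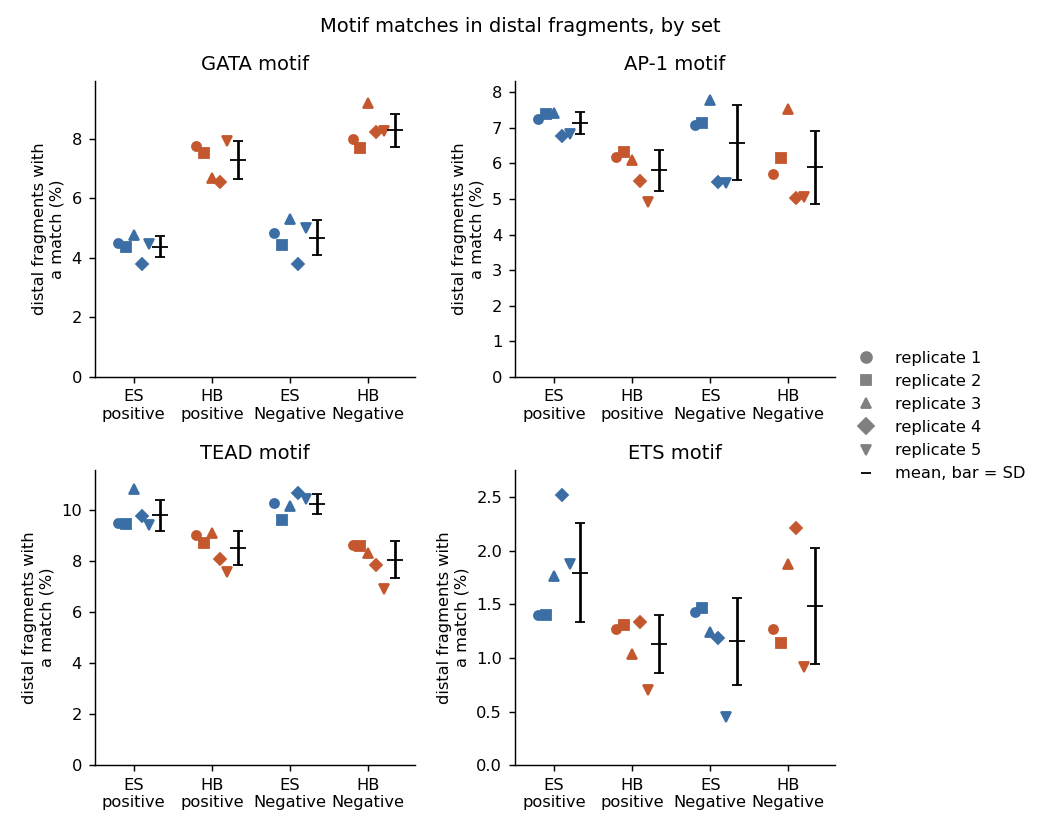
Share of distal fragments (%) with a match to the GATA, AP-1, TEAD or ETS motif in each YFP-positive set and Negative list of ES (blue) and HB (orange), 1 symbol per replicate, with mean and SD over 5 replicates. GATA rises from 4.37% to 7.29% in positive sets and from 4.67% to 8.28% in Negative lists, without overlap in either.

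The GATA difference was small within distal sites that positive cells of both stages listed. There it was 0.280 points (exact permutation test, adjusted p = 0.845, against 0.0437 to 0.244 with other settings). This restriction was chosen after the values were seen. In all distal fragments the GATA difference was 2.78 to 3.17 points with each replicate left out, and 2.79 points in replicates 1 to 3 alone, designs in which the smallest unadjusted p is 0.0286 and 0.1. Leaving out any 1 replicate left 0 of 22 measures called (lowest adjusted p from 0.0898 to 0.157). The ETS difference was -0.32 points in replicates 1 to 3 alone.

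Sites were then sorted by whether the other stage listed them at all, with a minimum of 10 fragments over the 5 thinned positive sets of 1 stage, a threshold set after the data were seen. Of 1116 such distal sites in ES, 83 (7.44%) had 0 fragments in the positive sets of HB, and of 1241 in HB, 250 (20.1%) had 0 in those of ES. Of promoters, 207 of 6590 (3.14%) were listed in ES alone and 102 of 6322 (1.61%) in HB alone. With minimums of 5 and 20 fragments, the distal shares were 11.9% and 4.72% in ES and 24.2% and 13.5% in HB. The promoter shares were 3.60% and 3.51% in ES and 4.01% and 0.432% in HB, so the higher promoter share lay in HB at a minimum of 5 fragments and in ES at 10 and 20.

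Sites of 1 stage alone were missing from the other stage's Negative lists too. Of the 250 distal sites listed in HB alone, 249 (99.6%) were also absent from every Negative list of ES, while 247 were in Negative lists of HB. Of the 83 listed in ES alone, 82 (98.8%) were absent from every Negative list of HB and 80 were in those of ES. By contrast, of the distal sites that positive sets of both stages listed, 1.94% (20 of 1033 with at least 10 ES fragments) and 3.33% (33 of 991 with at least 10 HB fragments) were absent from the other stage's Negative lists. For promoters, 206 of 207 sites of ES alone and 99 of 102 of HB alone were absent from the other stage's Negative lists. The study limited its lists to open chromatin peaks, and the sources used here do not say which stage's peaks served for which list. Loss of reporter activity and removal of a site from all lists of a stage cannot be told apart from these lists.

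**Figure D3:**
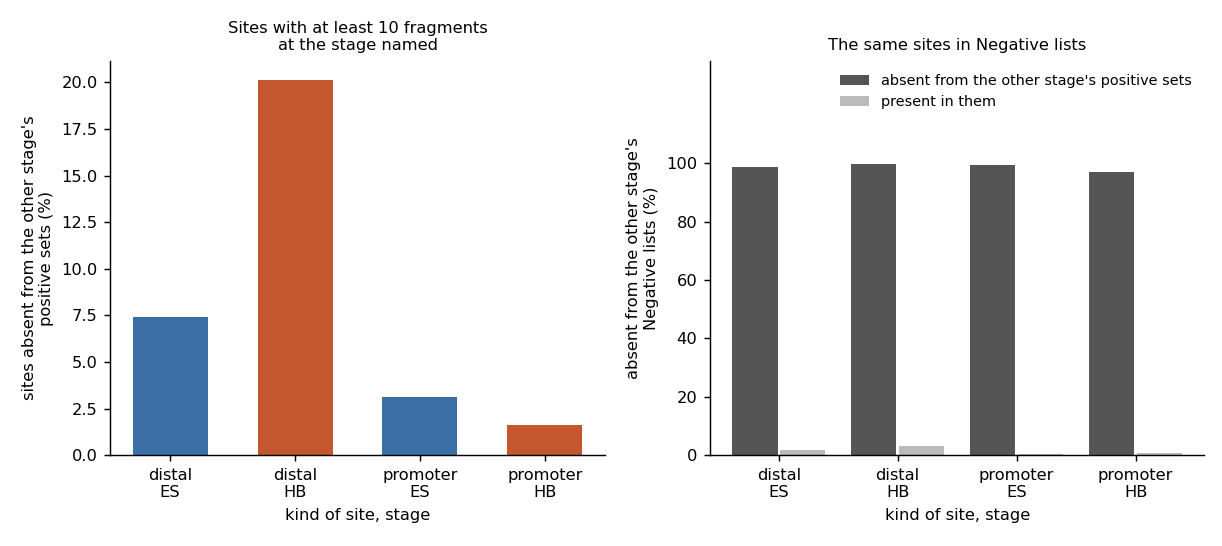
Left, share of distal and promoter sites with at least 10 fragments at 1 stage (ES blue, HB orange) that had 0 fragments in the other stage's positive sets, with 20.1% for distal sites of HB as the highest. Right, share absent from the other stage's Negative lists, for sites absent from its positive sets (dark, 97.1% to 99.6%) and for sites present in them (light, 0.564% to 3.33%).

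GATA motifs were frequent in the sites of HB alone. A match lay in 21.0% of the 3741 distinct fragments of the 250 distal sites of HB alone, in 3.85% of fragments of 2957 distal sites of both stages and in 4.35% of fragments of the 83 sites of ES alone. Sites of both stages here had at least 10 fragments in the thinned positive sets of ES and HB together, a lower bar than 10 at 1 stage. Counted by sites, 119 of 250 (47.6%) held a fragment with a match, against 13.2% and 14.5%. The E-box CAGATG was in 17.1% of fragments at sites of HB alone, 9.54% at sites of both stages and 11.2% at sites of ES alone. Counted by sites, the E-box shares lay closer together, at 40.8%, 31.6% and 37.3%. SP motifs (GGGCGG), typical of CpG-rich promoters, were in 11.2%, 26.8% and 25.1%. At sites of ES alone, AP-1 matches were in 14.9% of fragments, against 6.80% at sites of both stages and 6.34% at sites of HB alone, and TEAD matches in 12.5%, 7.75% and 10.4%. At promoters of HB alone, GATA matches were in 7.64% of fragments, against 1.32% at promoters of both stages and 1.49% at promoters of ES alone. Counted by promoter sites, 14 of 102 (13.7%) held a match, against 7.39% and 8.21%. Overlapping fragments of the same site count separately in the fragment shares. These shares pool the fragments of all replicates and describe the sites without a test.

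**Figure D4:**
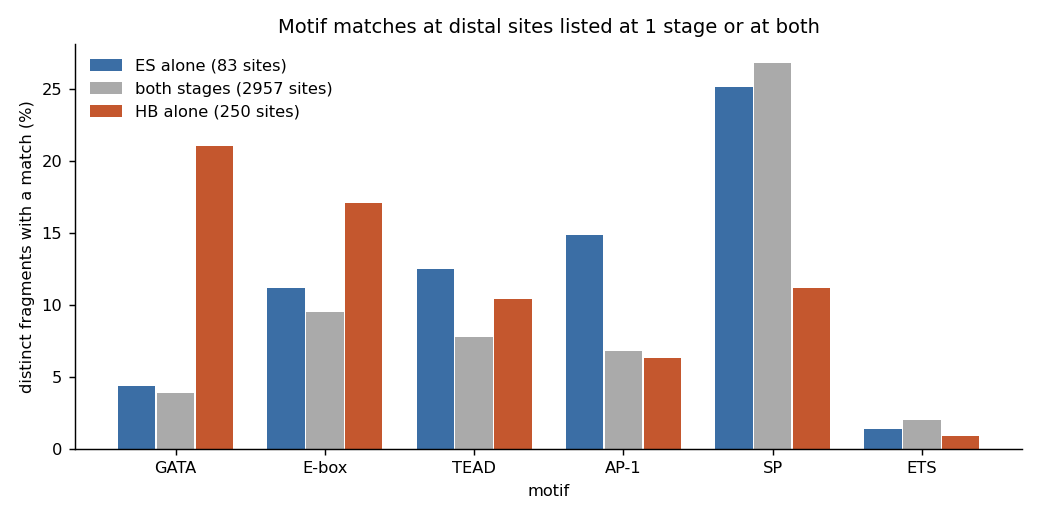
Share of distinct fragments (%) with a match to each motif at distal sites listed in ES alone (blue, 83 sites), at both stages (grey, 2957 sites) and in HB alone (orange, 250 sites). GATA matches stand at 21.0% in the sites of HB alone, and AP-1 matches at 14.9% in those of ES alone.

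Of 15 distal sites with at least 10 HB fragments nearest to a gene of the list of hemangioblast, endothelial and early blood genes, 9 (60%) were listed in HB alone, against 20.1% of all such distal sites. Of 6 with at least 10 ES fragments near these genes, 0 were listed in ES alone, against 7.44% of all such distal sites. These counts were made after the values were seen and have no test. Runx1, the master regulator of blood emergence, had 2, with 5, 7, 2, 0 and 0 fragments in the HB replicates at the site 57943 bp from its start and 3, 5, 2, 0 and 0 at the intronic site 3358 bp from it. Egfl7, an endothelial secreted protein, had 2, with 13, 6, 3, 0 and 1 fragments at the larger. Tal1, the bHLH factor of early blood, had 1 at 3658 bp from its start, with 6, 4, 2, 0 and 1 fragments. Kdr, which encodes FLK1, had 1, with 6, 4, 1, 0 and 0 fragments. Sox7, Gfi1 and Flt1 had 1 each, with 14, 19 and 11 fragments in all. In the signal response list, 4 of 10 distal sites with at least 10 HB fragments (40%) were in HB alone, and in the mesoderm list 1 of 4 (25%). In the pluripotency, endoderm and housekeeping lists it was 0 of 1, 0 of 2 and 0 of 3. Smad6, a BMP inhibitor induced by BMP signals and a member of the signal response list, had 2 such sites, with 21 and 15 fragments. The replicates with few fragments in all (4 and 5) rarely listed any of these sites. By the choice of these sites, ES had 0 fragments there.

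Promoters of HB alone included Lyl1, Itga2b, Gata2, Sox7 and Hand1. They also included 1 of 13 housekeeping promoter sites with at least 10 HB fragments (7.69%). Of 13 housekeeping promoter sites with at least 10 ES fragments, 2 (15.4%) were listed in ES alone. The list of hemangioblast, endothelial and early blood genes had 12 promoter sites with at least 10 HB fragments. Of these, 4 (33.3%) were listed in HB alone, against 1.61% of all such promoter sites. Of 8 with at least 10 ES fragments, 2 (25%) were listed in ES alone, against 3.14% of all such promoter sites. Itga2b encodes CD41, the marker of the earliest blood progenitors, and its promoter had 14, 14, 5, 1 and 0 fragments in the HB sets after thinning. Gata2, a GATA factor of hemangioblasts and stem cells, had 7, 7, 2, 0 and 0 on the same count. Of the genes in the lists, only the housekeeping gene Ywhaz had a distal site of ES alone, with 3, 7, 0, 0 and 0 fragments. Promoters of ES alone included the housekeeping gene Eef2, whose site is shared with Dapk3, with 22, 16, 2, 1 and 0 fragments. Plvap and Lef1 had 13 and 10 fragments in ES alone, although both genes were listed for the endothelial and signal response groups.

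Single sites were tested by limma on log2 of fragments per 10000 with 1 added, where the added 1 sets the size of any difference against 0. Among distal sites 0 of 6274 (0%) passed at an adjusted p of 0.05, with 188 at an unadjusted p below 0.05, 116 of them higher in HB. Among promoter sites 2 of 10864 passed, both lower in HB (0.0184%), with 287 unadjusted. Among gene loci, in which the distal fragments nearest to the same protein-coding gene within 100 kb were summed, 0 of 5314 (0%) passed, with 166 unadjusted, 115 of them higher in HB. With array weights, which let limma give less weight to noisy sets (weights of 2.81 to 4.85 in replicates 1 and 2 and 0.228 to 0.896 in replicates 3 to 5), 14 distal sites (0.223%), 124 promoter sites (1.14%) and 151 gene loci (2.84%) passed. Of these, 11 distal sites (0.175%), 38 promoter sites (0.35%) and 117 gene loci (2.2%) were higher in HB, and 3 (0.0478%), 86 (0.792%) and 34 (0.64%) were lower.

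In Negative lists, the same test called 0 of 1283 distal sites, 0 of 6075 promoter sites and 0 of 1803 gene loci, with 15, 56 and 27 at an unadjusted p below 0.05. With array weights it called 0 distal sites, 7 promoter sites (0.115%, all lower in HB) and 0 gene loci. The positive change minus the Negative change passed in 0 of 6332 distal sites, 0 of 10928 promoter sites and 0 of 5351 gene loci, with 53 distal sites, 119 promoter sites in one direction and 133 in the other, and 79 gene loci at an unadjusted p below 0.05. At no single site or locus did limma therefore detect a stage change that differed between cells with and without YFP. Positive sets and Negative lists were not compared directly at single sites.

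The 2 promoter sites that passed were both listed in ES alone, so they entered the test only through ES. The Sfi1 site (chr11:3192793-3193419, in an intron at an annotated start of the gene for a centrosome protein) had 65, 65, 15, 2 and 2 fragments in ES replicates 1 to 5 and 0 in all 5 HB sets. It fell by 2.85 ± 0.604 (SE) on the log2 scale (limma, adjusted p = 0.0261), and its adjusted p ran from 2.02e-23 to 1 over the alternatives. The mt-Nd5 site (chrM:12110-12339, coding exon of a mitochondrial complex I subunit) had 55, 56, 23, 1 and 2 fragments in ES and 0 in HB, and fell by 2.73 ± 0.602 (adjusted p = 0.0311, from 3.13e-21 to 1). In the Negative lists the same sites had 46 and 42 fragments in ES and 0 in HB. Leaving out replicate 1, 2 or 3 or adding the replicate block left 0 promoter sites called, and leaving out replicate 5 gave 14. The block matters here, since same-numbered positive sets deviated together in promoter sites (correlations from 0.12 to 0.32). These correlations were 0.068 to 0.26 in distal sites and 0.079 to 0.22 in gene loci. The other promoter with a small p lower in HB was Txndc11, a thioredoxin-domain protein, with 27, 24, 11, 1 and 3 fragments in ES and 0 in HB (adjusted p = 0.209).

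The promoter sites with the smallest p higher in HB belonged to blood genes and to the mitochondrial genome. Cbfa2t3, which encodes the ETO2 corepressor found with TAL1 and GATA factors, had 24, 21, 4, 2 and 1 fragments in HB and 0 in every ES set (log2 difference 1.77 ± 0.521, limma, adjusted p = 0.597). Lyl1, a bHLH factor closely related to TAL1, had 23, 14, 3, 1 and 2 in HB and 0 in ES (1.64 ± 0.501, adjusted p = 0.797). The site nearest to mt-Nd1 and mt-Nd2 had 18, 26, 13, 0 and 2 in HB and 0 in ES (adjusted p = 0.597). These sites entered the test only through HB, so the filter fixed HB as higher in at least 4 of 5 replicates. It was higher in 5 of 5 at Cbfa2t3 and Lyl1. With array weights the adjusted p of Cbfa2t3 and Lyl1 was 5.13e-07 and 6.46e-06, under the same selection. In Negative lists Cbfa2t3 had 15 and Lyl1 17 fragments in HB and 0 in ES. A second site 664 bp from the nearest start, between Lyl1 and Trmt1, was listed in ES alone, with 12, 9, 4, 0 and 0 fragments.

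Among distal sites, those with the smallest p also had 0 fragments at 1 stage, apart from Zfp958, and so entered the test only through the other stage. Higher in HB were sites near Atp2a3, a calcium pump of the endoplasmic reticulum, with 17, 19, 5, 1 and 1 HB fragments, near Slc38a10, with 19, 19, 7, 2 and 0, and near Fosl2, an AP-1 subunit, with 5, 3, 0, 3 and 1. Lower in HB were a site near Phf19, a Polycomb subunit, with 34, 39, 14, 0 and 2 ES fragments, and one near Lars2, a mitochondrial leucyl-tRNA synthetase, with 14, 15, 6, 1 and 1. The Zfp958 site had 28, 30, 7, 5 and 1 fragments in ES and 29, 27, 12, 5 and 0 in HB before thinning, with a tested log2 difference of -0.722. For all 6 the adjusted p was 1, and with array weights the sites of Atp2a3 and Slc38a10 (adjusted p = 0.0359 for both) and of Phf19 (7.72e-05) passed. In Negative lists the sites of Atp2a3, Slc38a10 and Fosl2 had 19, 16 and 5 fragments in HB and 0 in ES. Those of Phf19 and Lars2 had 28 and 17 in ES and 0 in HB, and Zfp958 had 25 in ES and 34 in HB. The distal Slc38a10 and Phf19 sites lay 81 and 210 bp from a protein-coding start of the annotation used here (GENCODE vM21), which differs from the study's set of starts.

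**Figure D5:**
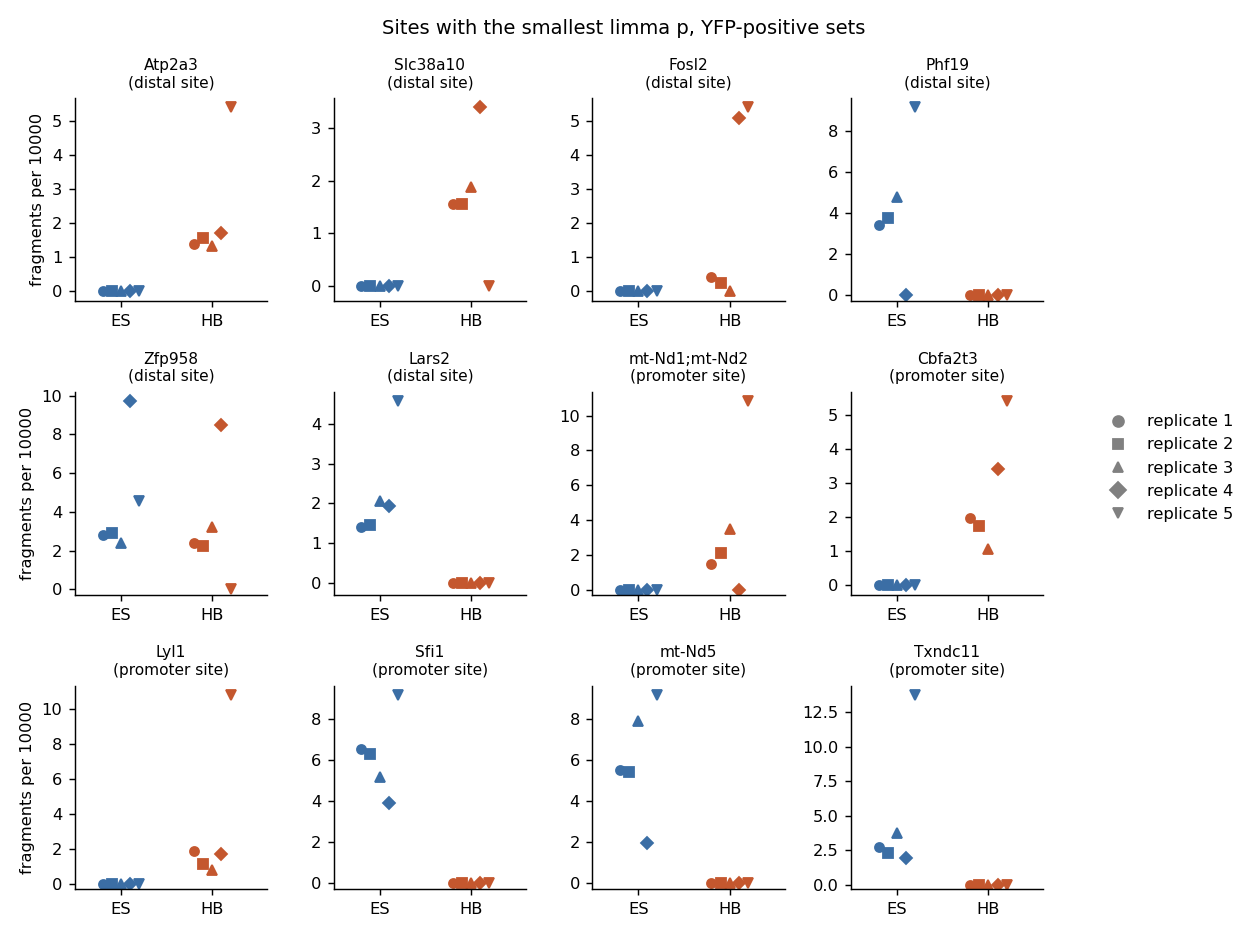
Fragments per 10000 listed fragments in the 5 ES (blue) and 5 HB (orange) positive sets before thinning, 1 symbol per replicate, for the 3 distal and 3 promoter sites with the smallest limma p in each direction. All sites but Zfp958 are at 0 in every set of 1 stage, and the highest points come from replicates 4 and 5, the smallest sets.

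Of the 6 gene loci with the smallest p, those of Atp2a3, Fosl2 and Phf19 were also among the distal sites named above. Atp2a3 (55 HB fragments), Fosl2 (12) and Fmnl3, a formin (33), led in HB, and Phf19 (90 ES fragments), Rbx1, a subunit of cullin ubiquitin ligases (51), and Dnajb12, a chaperone (29), in ES. Each had 0 fragments at the other stage and entered the test only through the stage where it led. In Negative lists Atp2a3, Fosl2 and Fmnl3 had 26, 5 and 9 fragments in HB and 0 in ES. Phf19, Rbx1 and Dnajb12 had 28, 20 and 11 in ES and 0 in HB there. The lowest adjusted p was 0.988, and with array weights 5 of these 6 passed, with Fosl2 at 0.187. In replicates 1 to 3 alone, 32 gene loci passed, 28 of them higher in HB.

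Loci of hemangioblast, endothelial and early blood genes did not pass the test one by one. Of 30 genes in the list, 26 had a distal fragment and 20 passed the filter on low values. Of these, 13 were higher and 7 lower in HB and 0 passed in either direction, while 2933 of all 5314 loci tested (55.2%) were higher. The median log2 difference was 0.18, against 0.025 over all loci. In Negative lists 13 loci of the list were tested, with a median of 0.31 against 0 over all. Runx1 had 4, 2, 0, 0 and 0 fragments in ES and 17, 23, 6, 0 and 1 in HB (log2 difference 1.25 ± 0.508, limma, adjusted p = 0.988). Egfl7 had 6, 7, 0, 0 and 0 in ES and 30, 24, 7, 0 and 1 in HB (1.21 ± 0.554, adjusted p = 0.988). Both were higher in HB in 4 of 5 replicates. With array weights 5 loci of the list passed, all higher in HB: Runx1 (adjusted p = 0.00425), Egfl7 (0.0195), Kdr (0.00126), Sox7 (0.0171) and Fli1 (0.0420), an ETS factor of blood and endothelium. The same fit called 2.2% of all loci higher. Members with fewer fragments in HB were the loci of Cdh5, the endothelial cadherin (17 in ES and 10 in HB), Lyl1 (9 and 3) and Plvap (7 and 4), and 0 of these differences passed.

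In the Negative lists Runx1 had 2 fragments in ES and 17 in HB, and Egfl7 3 and 23. Itga2b, with 24 and 44 positive fragments, did not pass under either fit (adjusted p = 0.988 and 0.656). Of the promoters of the list, 15 sites were tested, 11 were higher in HB and 0 passed, with a median of 0.062 against -0.0057 over all promoter sites. With array weights 3 passed, all higher: Lyl1, Itga2b (0 fragments in ES and 36 in HB, adjusted p = 5.69e-07) and Flt1 (4 and 16, adjusted p = 0.0407). The same fit called 0.35% of all promoter sites higher. Hhex, a homeobox gene of endoderm and blood, and Mecom, a zinc finger gene of blood stem cells, had 28 and 26 promoter fragments in ES and 27 and 24 in HB. These are totals before thinning, and the tested log2 differences were -0.874 and 0.253. The distal site over the Mecom element described by the study (chr3:30353942-30354684, in an intron) had 2 and 5 fragments in HB replicates 1 and 2 and 0 in all other HB and all ES sets, too few sets for the test.

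Of 25 genes of the primitive streak and mesoderm, 19 loci were tested, 14 were higher and 5 lower in HB, and 0 passed. Over all loci tested 55.2% were higher. The median was 0.097, against 0.025 over all loci. Gata4 and Gata6, GATA factors of mesoderm and endoderm, had 5 and 2 distal fragments in ES and 18 and 18 in HB. With array weights Gata6 (adjusted p = 0.0307) and Lhx1, a homeobox gene of the streak (1 and 14 fragments, adjusted p = 0.0195), passed. The same fit called 2.2% of all loci higher. Gata4 did not pass (0.574). The promoter of Gata4 had 0 fragments in ES and 3, 7, 3, 1 and 0 in HB (log2 difference 0.56, limma, adjusted p = 1). Hand1, Hand2 and Snai1 had 21, 21 and 17 distal fragments in ES and 42, 32 and 24 in HB before thinning. Their tested log2 differences, in which every thinned set counts equally, were -0.183, -0.306 and 0.0928, and 0 of them passed. Totals and tested differences can thus point in opposite directions. The promoters of this list had a median of 0.00072, and the Pdgfra promoter had 9 and 23 fragments.

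Pluripotency genes did not pass the test in either direction. Of 24 genes, 13 loci were tested, 7 were higher and 5 lower in HB, and 0 passed. The median was 0.099, against 0.025 over all loci. Esrrb, an orphan receptor of the ES cell network, had 8, 9, 1, 0 and 0 distal fragments in ES and 3, 17, 7, 1 and 0 in HB (log2 difference 0.53 ± 0.476, limma, adjusted p = 1). Klf4 had 20 and 22 and Tbx3 13 and 29 in all before thinning, with tested log2 differences of 0.160 and -0.474. Lefty1, an inhibitor of NODAL signals, had 2 in ES and 15 in HB (adjusted p = 0.988). At the Klf2 promoter ES had 47 and HB 61 fragments. With array weights 0 loci and 0 promoters of the list passed.

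The loci of the other lists had medians from -0.020 to 0.016, against 0.025 over all loci. Neural ectoderm genes (10 loci tested, median 0.016), endoderm genes (7 loci, median 0.0011), BMP, WNT and FGF response genes (18 loci, 9 higher and 9 lower, median -0.020) and housekeeping genes (6 loci, median -0.0055) had 0 loci called under either fit. Smad6 had 45 ES and 93 HB fragments and Smad7, another inhibitory SMAD, 50 and 40, and 0 of these differences passed (adjusted p = 1 for both). Sox1 and Pax6, neural factors, had 15 and 15 fragments in ES and 22 and 16 in HB before thinning, with tested log2 differences of -0.356 and -0.0199. Promoter medians were 0.090 for endoderm genes (4 sites) and 0.058 for housekeeping genes (15 sites), against -0.0057 over all promoter sites. Of the housekeeping promoters 8 were higher and 7 lower, and with array weights 2 passed, both lower in HB, a call that the same fit made for 0.792% of all promoter sites: Eef2, an elongation factor (41 fragments in ES and 0 in HB, adjusted p = 1.67e-09), and Hsp90ab1, a chaperone (24 and 8, adjusted p = 0.00506). The Actb and Gapdh promoters had 41 and 41 fragments in ES and 50 and 49 in HB before thinning, with tested log2 differences of -0.0413 and 0.505.

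The gate of a fragment in ES was set beside its gate in HB, in a test over 5 pairs that cannot give a p under 0.063. Among fragments with identical ends listed at both stages of a replicate in 1 kind of cell at each, those positive in ES were positive in HB in 79.0%, 57.8%, 87.2%, 93.4% and 58.0% of cases in replicates 1 to 5. Those Negative in ES were positive in HB in 81.8%, 55.5%, 85.5%, 74.2% and 90.0%. The first share was higher in 3 of 5 replicates, and the means were 75.1% ± 16.5 and 77.4% ± 13.6, a difference of -2.3 points (exact sign-flip test, p = 0.8125). Without replicate 5, in which 20 fragments were Negative in ES, the difference was 5.12 points (exact sign-flip test, p = 0.5). Of all HB fragments listed in 1 kind of cell, 79.9%, 77.2%, 89.2%, 84.8% and 58.1% were positive in replicates 1 to 5. Fragments positive in ES lay above that share in replicate 4 alone.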

How the data were processed

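Sorted libraries were deposited by the authors as lists of intervals in mm10, with distal and promoter fragments in separate files, each fragment listed as 1 interval with no read count. According to the methods, reads were trimmed with Trim Galore, mapped with Bowtie2, filtered by SAMtools and bedtools, cleared of fragments seen in HM-1 cells without a library, held against plasmid fragments and limited to open chromatin peaks. Rare fragments can be lost in the PCR that precedes sequencing. Plasmid and HM-1 control lists were deposited with read counts per fragment, of which the presence of a fragment was used here.

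Starts of sorted fragments were moved by 1 bp to match the plasmid lists (46.4% identical to a pSKB fragment after the move and 1.19% before). Coordinates are counted from 1. Overlapping fragments of all stages were merged into 58911 distal and 17854 promoter sites. Sites were annotated with GENCODE vM21. Positive sets were the union of the lists of a stage and replicate. Means of 5 were compared by exact two-sided permutation tests (smallest p 0.00794), pairs by exact sign-flip tests, with Benjamini-Hochberg adjustment within each family. Sites and loci with a fragment in at least 4 of 10 sets were tested by limma 3.58.1 (lmFit, eBayes with trend) at an adjusted p of 0.05. The tests were checked on simulated data. Labels name the sets as replicates without naming separate cultures, so p-values measure the spread between these sets.

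Members, gene lists and motifs were chosen with earlier results of these data known. The named features are the 3 with the smallest limma p per direction and unit, the 3 loci and 2 promoters of each of 7 gene lists with the most fragments, and the Mecom element. Sites of 1 stage alone, loci called with array weights and other list members given with values were chosen after their values were seen. Alternatives covered thinning, pseudocount, filters, weights, the replicate block, gates, plasmid and control filters, site definitions and replicates.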

Additional observations from a re-analysis of the deposited data

Results flagged for a closer look

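A value counted as standing apart when its gap to the nearest of the other 4 replicates exceeded 0.71 of the group's range, which chance gives in about 1 of 20 groups. Of 62 groups of 5 values checked, 13 held such a value. Among them were the numbers of sites at equal fragment number. ES replicate 4 was lowest with 211.5 distal and 604.5 promoter sites in positive sets (the others 216.4 to 217.5 and 624.3 to 631.7) and with 195.6 and 557.6 in Negative lists. HB replicate 4 was lowest in Negative lists with 203.3 and 570.0.

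In the annotation of distal fragments, each replicate is ranked within its own stage. HB replicate 4 had the highest share of the HB sets in exons outside coding sequence (10.2% of positive fragments) and HB replicate 5 the highest between genes (44.6%). ES replicate 5 had the lowest share of the ES sets in introns, 39.7% of positive and 35.9% of Negative fragments, and the highest between genes among Negative fragments (50%). For motifs, ES replicate 3 had the highest TEAD share of the ES positive sets (10.8%) and ES replicate 5 the lowest ETS share of the ES Negative lists (0.455%). With these last values the TEAD difference in positive sets was still lower in HB in 5 of 5 replicates, and the ETS difference in Negative lists was not called.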

How the results depend on the processing

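The distal share kept its direction under all alternatives run. By exact permutation tests its difference was 3.84 points as a mean over lists (p = 0.0794), 4.32 with High and Medium/High lists only (p = 0.127) and 4.12 with the replicate block (p = 0.063), and leaving out a replicate gave 3.66 to 4.53 points. The 4 motif calls became 0 with matches per kb of the whole fragment (lowest adjusted p = 0.109), with the replicate block (0.172), with 1 fragment per site (0.0582), in replicates 1 to 3 (0.244), in sites of both stages only (0.815) and without any replicate (0 to 0 called, 0.0898 to 0.157), and the GATA, AP-1, TEAD and ETS differences kept their sign in each. With 4 against 4, with 3 against 3 or with the block, the smallest p is too large for a few measures to pass the adjustment. Distal sites at equal number turned to -0.206 with fragments identical to one of the pSKB plasmid library only, and gate switching turned to 6.06 with High lists only and to -7.68 to 5.12 with a replicate left out. Leaving out a replicate gave 0.116 to 1.55 for distal and 1.68 to 4.2 for promoter sites at equal number, 0.266 to 0.329 and 0.0426 to 0.0599 for sharing, and 0 to 0 for annotation and promoter motifs.

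For limma, distal sites called were 1 without a filter on low values and 14 with array weights. Promoter sites called were 0 with all sets thinned to the smallest, the replicate block, High lists only, no Low lists, pSKB-identical fragments or 500 bp bins. They were 1 in replicates 1 to 3, 124 with array weights, and 0 to 14 with a replicate left out. They were also 0 with a fragment in 6 sets. That filter removes every site absent from all sets of 1 stage before the test, Sfi1 and mt-Nd5 among them, so it cannot test their calls. Gene loci called were 1 with all sets thinned to the smallest, 151 with array weights, 32 in replicates 1 to 3 and 2 with promoter and distal fragments together. In Negative lists, 2 distal sites were called without a filter and 7 promoter sites with array weights. Without a replicate, 0 to 0 were called for distal sites, gene loci and Negative lists. The replicate block changed no other call. Negative distal sites (11 passed the filter) and Negative gene loci (21) could not be fitted with all sets thinned to the smallest. The cause of these changes was not tested. Deviations of same-numbered positive sets correlated at 0.12 to 0.32 (promoter sites), 0.068 to 0.26 (distal sites) and 0.079 to 0.22 (gene loci).

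The lists hold no read numbers, so depth per fragment is unknown. Replicates 4 and 5 hold few fragments, and a site absent there is below what these sets can show. Presence in a list before the authors' filters was not analysed here.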

Other observations

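Fragments of the mitochondrial genome were listed more in ES than in HB in replicates 1 to 3, with 65, 63 and 23 in ES and 23, 28 and 13 in HB positive sets. Most came from single promoter sites named above. The mt-Nd5 site held 55, 56 and 23 of those in ES and none in HB. The site nearest to mt-Nd1 and mt-Nd2 held 18, 26 and 13 of those in HB and none in ES. Of the 207 promoter sites listed in ES alone, chromosome 11 held 17.4%, chromosome 9 14.98%, chromosome 2 14.0% and chromosome 15 8.21%, against 10.6%, 6.02%, 7.97% and 3.72% of all promoter sites with at least 10 ES fragments. Chromosome 4 held 1.45% against 6.22%. Fragments identical to an HM-1 control fragment made up 0.193% to 3.25% of the positive sets and 0.192% to 5.11% of the Negative lists, with the highest shares in replicate 5. These values were chosen after the data were seen and were not tested.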
